A study of Mus musculus with 18 samples.

Results

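The genes of cytochrome P450 families 1 to 4 were described in mouse liver, and in the RAW264.7 macrophages of the same study where they were expressed. Members were the rows of the liver table whose symbol was Cyp, a family number from 1 to 4, a subfamily letter and a number, with a mean FPKM (fragments scaled to transcript length and library size) above 1 over 9 liver libraries. Of 21441 genes in the table, 70 had such a symbol and 46 passed the minimum. The 46 members fell into 16 subfamilies, and 24 genes with a matching symbol had a mean of 1 or less. Just outside the minimum was Cyp2c69 (mean FPKM 0.966), and just inside it were Cyp2r1 (1.72), Cyp4f18 (1.75) and Cyp4f14 (1.76). The pattern left out symbols that end in a letter or in -ps, 3 of which were above the minimum (Cyp4a12a at 213, Cyp4a12b at 71.2 and Cyp4f41-ps at 1.47).

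The liver came from wild type C57BL/6 mice, male according to the methods of the study, in 3 groups. Control mice were injected with saline, LPS mice were injected intraperitoneally with 10 mg/kg lipopolysaccharide, the endotoxin of Gram-negative bacteria, and LPS + MIC-1 mice were gavaged with 80 mg/kg moringa isothiocyanate-1 (MIC-1), an isothiocyanate of Moringa oleifera seeds, in 10% DMSO for 3 days before the same LPS injection. Livers were collected 16 h after the injection. The study gives a vehicle gavage to the animals without MIC-1. No group received MIC-1 without LPS, and each group of 6 animals is represented by 3 libraries. RAW264.7 is a mouse macrophage line grown in culture. Its libraries, 3 each for control, LPS and LPS + MIC-1, carry the animal doses in their labels, whereas the design text names 10 µM MIC-1 for both tissues. The study states 10 µM MIC-1 for these cells, as do the column headings of their LPS + MIC-1 values. The age of the mice was not given in the sources used here.

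Cytochrome P450 enzymes are haem proteins of the endoplasmic reticulum that insert an atom of oxygen into their substrates, with electrons passed on by P450 oxidoreductase and cytochrome b5. Families 1 to 3 oxidise drugs, plant compounds, steroids and arachidonic acid, and family 4 hydroxylates fatty acids and leukotrienes, mostly at the far end of the chain. In the hepatocyte their transcription depends on HNF4A and C/EBP factors and on ligand-activated receptors: AHR for Cyp1a, CAR for Cyp2b10 and several Cyp2c genes, PXR for Cyp3a11, and PPARA for Cyp4a. Loss of hepatic P450 during infection and inflammation is a known part of the acute-phase response.

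Many P450 genes arose by tandem duplication and share long stretches of sequence, which bears on how reads are divided between them. The stretch around the cysteine codon that supplies the ligand of the haem iron is shown for members whose values follow, because it is identical in some neighbours that moved differently. It was read from the mm9 genome through the GENCODE vM1 coding sequences, 5′ to 3′ on the coding strand, with the cysteine codon in capitals. In Cyp1a2 it lies within 1 exon at chr9:57525203-57525232 (minus strand), in Cyp3a11 at chr5:146670381-146670410, in Cyp3a13 at chr5:138336495-138336524 and in Cyp3a25 at chr5:146793044-146793073 (all minus strand), and in the other genes shown an intron interrupts it.
Cyp1a2: ttcggcttgggaaagcgccggTGCattggg
Cyp2c37: ttctcaacagggaaacggataTGTgcagga
Cyp2c54: ttctcaacagggaaacggataTGTgcagga
Cyp2c50: ttctcaacaggaaaacggataTGTgcagga
Cyp3a11: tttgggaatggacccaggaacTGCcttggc
Cyp3a25: tttggaaatggacccaggaacTGCataggc
Cyp3a13: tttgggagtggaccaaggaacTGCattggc
Cyp4a10: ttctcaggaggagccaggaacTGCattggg
Cyp4a31: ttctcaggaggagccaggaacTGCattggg
Cyp4a32: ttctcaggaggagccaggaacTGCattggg

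Cyp2c37 and Cyp2c54 were identical over these 30 bases and Cyp2c50 differed from both at 1 base, whereas Cyp3a11 differed from Cyp3a25 and from Cyp3a13 at 3 bases. Cyp4a10, Cyp4a31 and Cyp4a32 were identical. Over whole coding transcripts, the share of 31-base words that a gene had in common with any other gene was 77.7% for Cyp2c40, 68.6% for Cyp2c67, 65.3% for Cyp4a32, 62.4% for Cyp2c68, 50.8% for Cyp2d10, 47.9% for Cyp3a59, 47.3% for Cyp2c50, 46.7% for Cyp2d9, 45.9% for Cyp2c37, 45.6% for Cyp3a25 and 45.2% for Cyp2a5, almost all of the last with Cyp2a4. Below these came Cyp4a10 with 44.3%, Cyp2a12 with 41.8% and Cyp2c54 with 41.7%. It was 0% for Cyp2c44, Cyp2c70, Cyp2f2, Cyp2r1, Cyp2u1 and Cyp4b1 and 0.2% for Cyp3a13. Values of the genes with large shares depend on how pseudoalignment divided shared reads, and the subfamily sums below do not depend on the division among summed members. Cyp2d13 was not matched in the annotation used.

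Reads per liver library, recovered from the smallest steps of the FPKM values, numbered 4250000 to 9770000 in the controls, 11000000 to 17120000 with LPS and 12800000 to 17310000 with LPS + MIC-1. The 34 best covered members averaged over 100 reads a library, and 8 members had under 10 reads in their lowest library. Replicate libraries, numbered by their order in the table, were not equally alike: libraries 2 and 3 of the control group, and libraries 1 and 3 of both LPS groups, were far closer to each other than to the remaining one. The study describes the liver libraries as coming from separate mice, but the labels tie no library to an animal or, for the macrophages, to a culture. The p-values below set differences of group means against the spread between these libraries. Control library 2 also had more acute-phase transcript than the other controls, with Saa1 at 1491 FPKM against 187 and 13.9. Hepatocyte markers were present throughout, with Alb between 13740 and 35990 FPKM. In whole liver, fewer cells of a type and less RNA per cell cannot be told apart.

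LPS lowered a large share of the liver P450 genes. By limma on log2(FPKM + 0.5), with an adjusted p below 0.05 and an absolute Log2FC above 1 as the call, 20 of 46 members fell and 3 rose (43.5% and 6.52%), where 11.2% of all 10147 genes tested were called lower and 13.4% higher. The median Log2FC was -1.02 over the members and 0.147 over all genes. Scaling all libraries to the same FPKM sum changed the calls over all genes from 1356 higher and 1137 lower to 797 and 1851, and those of the members to 3 and 25. In 25 members (54.3%) every LPS library lay below every control library, compared with 20.8% of all genes, and in 4 members every LPS library lay above (8.7% against 24.2%). Summed over the 46 members, FPKM was 13930, 9623 and 9906 in the controls and 5341, 5152 and 4901 with LPS. These sums were 1.54 to 1.84% of all FPKM in the control libraries and 0.552 to 0.681% in the LPS libraries. Libraries 1, 2 and 3 are given in that order throughout.

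**Figure D1:**
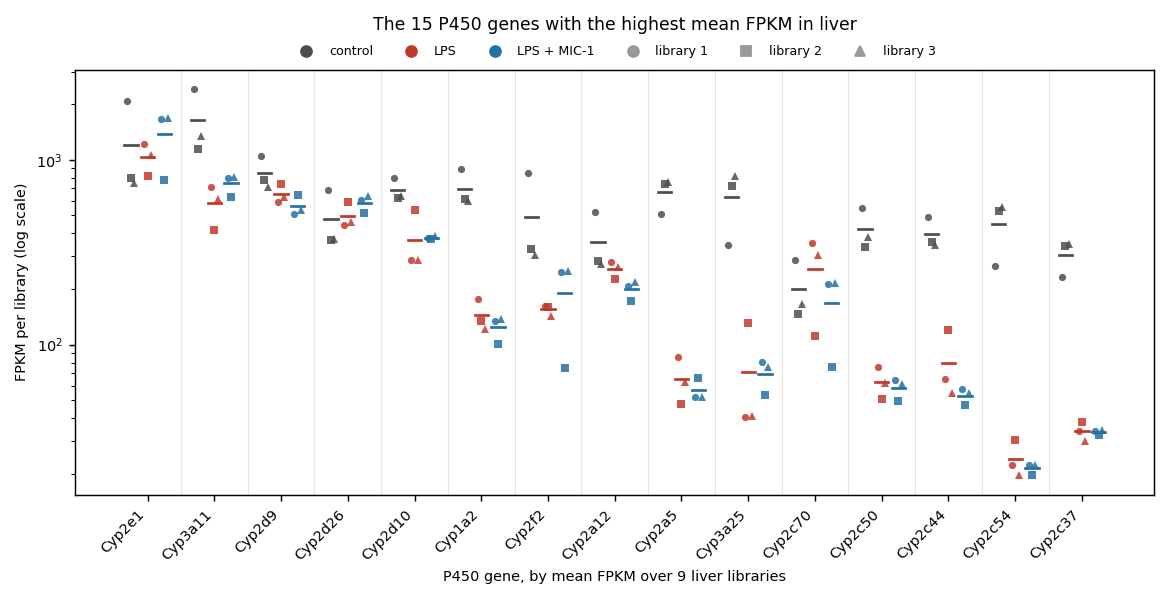
FPKM (log scale) of the 15 P450 genes with the highest mean over 9 liver libraries, by group (colour) and library (marker), with the group mean as a bar. Cyp2c54, Cyp2c37, Cyp2a5 and Cyp1a2 lie several fold below the controls in all 6 libraries that received LPS, while Cyp2e1 and Cyp2d26 overlap in the 3 groups.

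The Cyp2c subfamily, whose enzymes oxidise arachidonic acid and many drugs, held 11 members, of which 8 fell, none rose and 3 did not pass the test. Its summed FPKM was 2670, 2148 and 2241 in the controls and 836, 533 and 696 with LPS, a ratio of 0.293. Cyp2c54, on chromosome 19 (mm9, chr19:40112431-40148301, minus strand), had the largest fall of any member, from 268, 531 and 556 FPKM in the controls to 22.2, 30.4 and 19.6 with LPS. The means were 18.8-fold apart, and its Log2FC was -4.15 ± 0.30 (SE; limma, adjusted p = 0.000246). The highest LPS library lay far below the lowest control.

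Next to it lie Cyp2c37 (chr19:40066909-40086738) and Cyp2c50 (chr19:40164178-40188440), both on the plus strand and both counted among CAR-responsive genes. Cyp2c37 gave 232, 340.1 and 349 FPKM in the controls and 34.2, 38.1 and 30.2 with LPS (Log2FC -3.13 ± 0.20, limma, adjusted p = 0.000204). Cyp2c50 went from 551, 337 and 382 to 75.7, 50.5 and 61.8 FPKM (Log2FC -2.73 ± 0.24, limma, adjusted p = 0.000456). Neither gene had an LPS library within the control range.

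Cyp2c44, an arachidonic acid epoxygenase that shared no 31-base word with another gene, was at 489, 359 and 345 FPKM in the controls and at 65.1, 119.5 and 54.7 with LPS (Log2FC -2.37 ± 0.30, limma, adjusted p = 0.0018). Its LPS library 2 stood above the other LPS libraries and below the lowest control. Cyp2c55, Cyp2c68, Cyp2c38 and Cyp2c40 were the other Cyp2c genes that fell, with Log2FC between -2.44 and -1.64. Cyp2c55 was low throughout, at 2.68 to 8.07 FPKM in the controls and 0.142 to 0.717 with LPS.

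Among the Cyp2c genes that did not pass, Cyp2c70, which makes the muricholic acids of mouse bile, stood at 286, 147 and 166 FPKM in the controls and 355, 112 and 307 with LPS (Log2FC 0.27, 95% confidence interval -0.99 to 1.53). Its groups overlapped. Cyp2c29 ranged from 96.9 to 313 in the controls and from 18.3 to 168 with LPS, a spread of 9.15-fold among LPS libraries, and Cyp2c67 had a Log2FC of -1.02 with an adjusted p of 0.0755 by limma and ranges that did not overlap.

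In the Cyp2a subfamily only Cyp2a5, coumarin 7-hydroxylase, fell. It gave 509, 743 and 760.2 FPKM in the controls and 85.5, 48 and 62.8 with LPS, 10.3-fold lower in the mean (Log2FC -3.36 ± 0.26, limma, adjusted p = 0.00029). Cyp2a12, its neighbour on chromosome 7, which acts on bile acids and steroids, was at 519.8, 285 and 273 FPKM and then 282, 226 and 263, with ranges that overlapped (Log2FC -0.42, interval -1.04 to 0.19). Cyp2a22, of low abundance, had a Log2FC of -0.51 (adjusted p = 0.083, limma). The 3 genes summed to 1035, 1033 and 1039 FPKM in the controls and 372, 277 and 329 with LPS.

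Cyp1a2, the only family 1 member, is an AHR target that oxidises aromatic amines and caffeine. Its FPKM was 891, 611 and 597 in the controls and 178, 134 and 122 with LPS, a 4.85-fold difference of the means (Log2FC -2.27 ± 0.24, limma, adjusted p = 0.000948). Cyp1a1, below the minimum at a mean of 0.243 FPKM, was no member. Cyp2b10, the gene most used as a marker of CAR activity, was of low abundance, with 0.697 to 2.58 FPKM in the controls and 1.91 to 5.28 with LPS (Log2FC 1.00, interval -0.35 to 2.36), and it did not pass the test. With LPS + MIC-1 it ranged from 1.73 to 8.24 FPKM (Log2FC 1.40 against control, unadjusted p = 0.0442, adjusted p = 0.0947, limma), and it was called higher there when LPS + MIC-1 library 2 was left out. That library held the lowest of the LPS + MIC-1 values, and libraries 1 and 3, on which the call then rests, were close to each other.

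The Cyp3a subfamily moved in both directions. Cyp3a11, the main drug-oxidising PXR target of mouse liver, fell from 2421, 1142 and 1345 FPKM to 709.8, 416 and 616 (Log2FC -1.45 ± 0.33, limma, adjusted p = 0.0128). Cyp3a25 fell further, from 348, 720.5 and 820.4 to 40.7, 131 and 40.9 FPKM (Log2FC -3.28 ± 0.50, limma, adjusted p = 0.00368), and Cyp3a59, which shared 42.6% of its 31-base words with it, had a Log2FC of -1.32. LPS library 2 held the most Cyp3a25 of the LPS libraries and lay below every control. In contrast, Cyp3a13 rose from 24, 26.2 and 18.9 FPKM to 69.1, 62.5 and 78.0, 3.03-fold in the mean (Log2FC 1.59 ± 0.35, limma, adjusted p = 0.0121). Cyp3a13 lies apart from the others of its subfamily on chromosome 5 (chr5:138334160-138362847), and all 3 LPS libraries exceeded all controls. The sum over the 4 genes dropped from 2814, 1912 and 2209 FPKM to 829, 618 and 743.

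The Cyp2d subfamily, relatives of the enzyme that oxidises many basic drugs in humans, had 2 of 6 members lower and a ratio of LPS to control sums of 0.71. Cyp2d13 fell with a Log2FC of -2.11, and Cyp2d22 with one of -1.02, just past the limit. Cyp2d9, a male-predominant testosterone 16-alpha-hydroxylase, stood at 1048, 777 and 713 FPKM in the controls and 592, 738 and 628 with LPS (Log2FC -0.36, interval -0.85 to 0.13). Cyp2d26 was at 688, 367 and 373 and then at 445, 589 and 460.0 FPKM (Log2FC 0.12, interval -0.51 to 0.75). For both genes the groups overlapped. Cyp2d10 went from 799, 623 and 639.9 to 287, 534 and 286 FPKM, without overlap, and missed the fold limit with a Log2FC of -0.95 (adjusted p = 0.0264, limma). Cyp2d40 was higher with LPS in each library, at 36.4, 20.8 and 24.3 against 44.6, 56.0 and 52.7 FPKM, and likewise missed it (Log2FC 0.93, adjusted p = 0.0156, limma).

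Cyp2e1, which oxidises ethanol and paracetamol, was the most abundant member and did not pass the test. Its FPKM was 2079, 802 and 745 in the controls and 1216, 817 and 1061 with LPS (Log2FC -0.08, interval -1.12 to 0.97). Control library 1 held 2.79 times the FPKM of control library 3, and the interval is wide in both directions. Cyp2f2, a periportal P450 best known for naphthalene oxidation, showed the same imbalance in the controls, with 844.5, 331 and 306 FPKM against 162, 159.5 and 144 with LPS (Log2FC -1.51, adjusted p = 0.0561, limma). Its ranges did not overlap.

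The Cyp2j genes encode epoxygenases of arachidonic acid. Cyp2j9 fell from 17.1, 49.4 and 57.6 FPKM to 2.84, 8.96 and 2.60 (Log2FC -3.01 ± 0.55, limma, adjusted p = 0.00654). Cyp2j6 fell from 26.2, 29.2 and 29.7 to 13.3, 14.9 and 11.8 FPKM, with little spread in either group. Cyp2j5 overlapped, at 36.9 to 88.6 FPKM in the controls and 28.3 to 44.0 with LPS. Cyp2r1, a vitamin D 25-hydroxylase, and Cyp2u1, a fatty acid hydroxylase, averaged 1.31 and 1.72 FPKM with LPS and did not pass the test.

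Family 4 was divided. In the Cyp4a subfamily, PPARA targets that hydroxylate fatty acids, Cyp4a10 was called lower (237, 186 and 189 FPKM, then 48.4, 172 and 52.9), with an adjusted p of 0.0467 by limma and an LPS library 2 close to the controls. This call was lost without any one of the other libraries (adjusted p 0.0501 to 0.16) and held only without LPS library 2. Cyp4a14 and Cyp4a32 had Log2FC of 0.05 and -0.15. Cyp4a31 was listed at 0 in the 3 controls and at 0.734, 4.38 and 3.05 FPKM with LPS, and was called higher (Log2FC 2.47 ± 0.64 on the log2(FPKM + 0.5) scale, limma, adjusted p = 0.0203). Of its own 31-base words 32.0% also occur in other genes, 23.4% in Cyp4a32, and the part of shared reads in the listed zeros was not tested.

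Of the 6 Cyp4f genes, which act on leukotrienes and fatty acids, 1 rose and none fell. Cyp4f18, a leukotriene B4 hydroxylase known from neutrophils, went from 0.128, 0.907 and 0.665 FPKM to 1.86, 3.14 and 2.55 (Log2FC 1.56 ± 0.38, limma, adjusted p = 0.0173). The summed FPKM of 11 neutrophil markers was 37.6 to 53.5 in the controls, 355 to 453 with LPS and 194 to 465 with LPS + MIC-1. Mpo and Csf3r had a mean below 1. Of the 9 markers above it, 8 were called higher with LPS and Cxcr2 lower, beside 13.4% and 11.2% of all genes. The part of neutrophils in the Cyp4f18 result was not tested. Cyp4f13, the most abundant of the subfamily, was lower in each LPS library (62.6 to 101 against 33.8 to 62.5 FPKM) and missed the fold limit with a Log2FC of -0.94. Cyp4v3, the counterpart of a human fatty acid hydroxylase, and Cyp4x1 fell with Log2FC of -1.11 and -1.49, and Cyp4b1 averaged 4.42 FPKM in both groups.

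**Figure D2:**
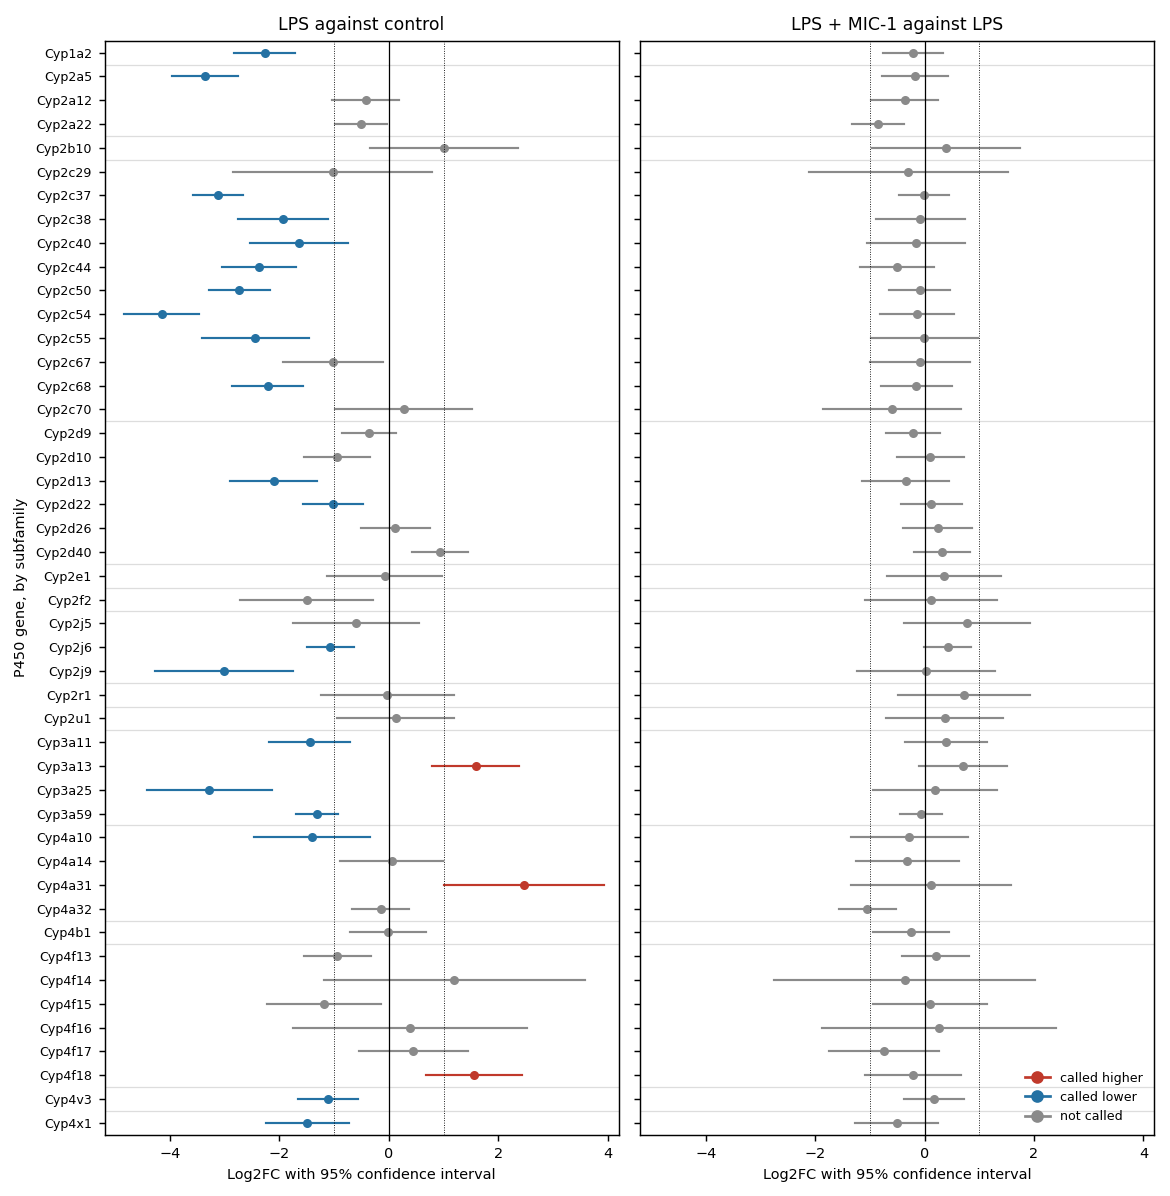
Log2FC with its 95% confidence interval for all 46 members, by subfamily, for LPS against control (left) and LPS + MIC-1 against LPS (right); dotted lines mark the limit of 1 and colour marks the call. On the left 20 genes are called lower and 3 higher, and on the right no interval leads to a call.

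All 3 rises depended on single libraries: without LPS library 3 none of them was called, and Cyp4a31 was also lost without control library 2 or 3. Among the falls, 15 were called whichever library was left out, namely Cyp1a2, Cyp2a5, Cyp2c37, Cyp2c38, Cyp2c44, Cyp2c50, Cyp2c54, Cyp2c55, Cyp2c68, Cyp2d13, Cyp2j9, Cyp3a11, Cyp3a25, Cyp3a59 and Cyp4x1. With the closest libraries of each group averaged into a single sample, which was tried once the values were known, 5 falls were still called (Cyp1a2, Cyp2a5, Cyp2c37, Cyp2c50 and Cyp2c54). Over all genes 44 were then called lower and 106 higher, where the main fit called 1137 and 1356.

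The comparison of LPS + MIC-1 with LPS asked whether pretreatment altered the response. No member was called, and none of the 10147 genes was, by limma (0% in each direction, smallest adjusted p 0.0546). Without LPS library 2, 20 genes were called higher and 15 lower, with 0 members among them. Those calls rest on LPS libraries 1 and 3, which were close to each other. With any other library left out, at most 1 gene was called in either direction. At an unadjusted p below 0.05 stood 364 genes (3.59%) and 2 members. The median 95% interval of a member reached 0.8 on the log2 scale to either side. The summed FPKM of all members was 6018, 4280 and 6098 with LPS + MIC-1. The mean of these sums was within 1.07-fold of the LPS mean (5465 against 5131). In 4 members the ranges of these groups did not overlap, 1 higher (2.17%, against 5.1% of all genes) and 3 lower (6.52%, against 4.64%).

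Cyp4a32 had the smallest p among the members, with 28.0, 47.0 and 29.3 FPKM after LPS and 16.7, 17.4 and 14.1 after pretreatment (Log2FC -1.05 ± 0.23, unadjusted p = 0.00147, adjusted p = 0.997, limma). Cyp2a22 followed, at 4.81, 3.47 and 3.01 and then 1.67, 1.8 and 1.98 FPKM (Log2FC -0.86 ± 0.21, unadjusted p = 0.0028, adjusted p = 0.997, limma). In both genes every LPS + MIC-1 library lay below every LPS library, and neither passed the adjustment over all genes. Cyp2c44 and Cyp4f17, with Log2FC of -0.51 and -0.74, came next among the lower values, both at an unadjusted p of 0.125 by limma.

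Towards higher values the smallest p was that of Cyp2j6, at 20.7, 14.1 and 19.6 FPKM with LPS + MIC-1 (Log2FC 0.42, unadjusted p = 0.0553, limma). Cyp3a13 gave 153, 61.0 and 156 FPKM (Log2FC 0.70, unadjusted p = 0.0789, limma) and Cyp2j5 gave 89.4, 26.8 and 91.6 (Log2FC 0.78, unadjusted p = 0.161, limma). In each of these genes LPS + MIC-1 libraries 1 and 3 lay above all LPS libraries and library 2 lay within or below their range. Library 2 was the lowest of the 3 LPS + MIC-1 libraries in 32 of 46 members. Cyp2d40, at 68.0, 60.1 and 62.0 FPKM, was the member higher without overlap (Log2FC 0.31, unadjusted p = 0.197, limma).

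Of the 20 genes that LPS lowered, 4 had a higher mean with LPS + MIC-1 than with LPS, and their Log2FC between these groups ran from -0.51 to 0.42. Both comparisons use the same LPS libraries. For 17 of the 20 the interval ended below 1 on its upper side, and for Cyp2j9, Cyp3a11 and Cyp3a25 it did not. The limit of 1 was not set against the size of each fall. Cyp2j6, with a Log2FC of -1.07 with LPS, had an upper end of 0.854. An end below 1 therefore does not exclude partial recovery. Cyp3a11 stood at 801, 630.1 and 805.5 FPKM with LPS + MIC-1, with all but library 2 above the LPS range. Cyp1a2 was at 134, 100.4 and 137, Cyp2a5 at 52.0, 65.9 and 52.0, Cyp2c54 at 22.3, 19.7 and 22.4 and Cyp2c37 at 34.2, 32.5 and 34.3 FPKM, all within the LPS ranges but for library 2 of Cyp1a2. Cyp3a25 gave 80.4, 53.3 and 75.4, Cyp2c50 64.4, 49.6 and 61.3, Cyp2c44 57.4, 47.2 and 54.5 and Cyp2j9 5.35, 2.91 and 4.70 FPKM.

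The abundant genes that LPS left uncalled stayed so. Cyp2e1 was at 1666, 777 and 1676 FPKM with LPS + MIC-1 (Log2FC 0.35, interval -0.70 to 1.39), Cyp2d9 at 511, 642 and 536, Cyp2d26 at 607, 513.5 and 636, and Cyp2d10 at 377, 372 and 389. Cyp2a12 gave 209, 173 and 217 FPKM, all below the LPS libraries, Cyp2f2 247, 74.8 and 252, and Cyp2c70 213, 76.0 and 216. In Cyp2e1, Cyp2f2 and Cyp2c70 the gap between library 2 and the others was larger than the difference of the group means.

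**Figure D3:**
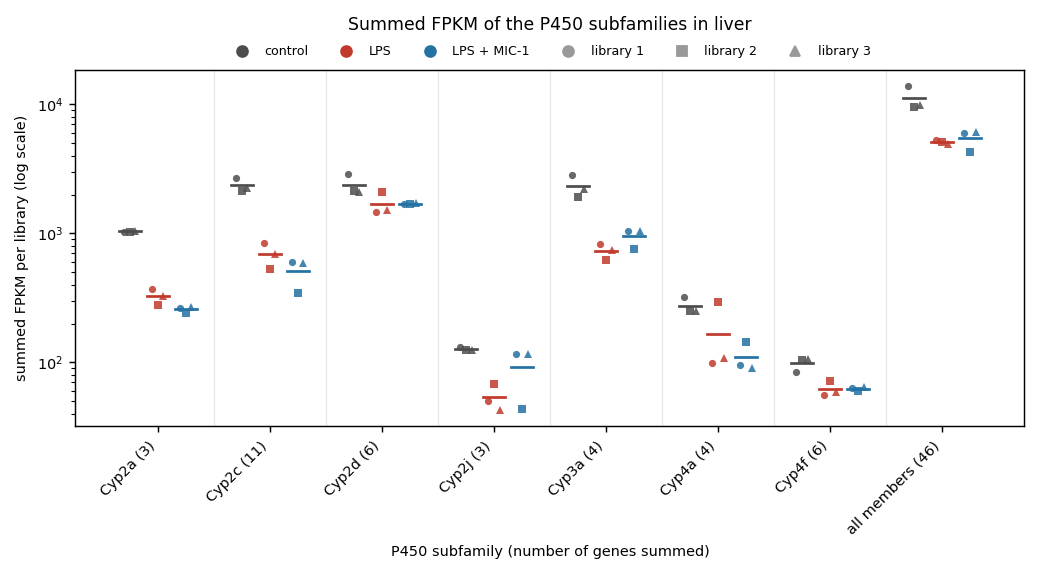
Summed FPKM (log scale) of the subfamilies with more than 1 member and of all 46 members, per liver library, with the group mean as a bar. For every sum but Cyp4a, all LPS and LPS + MIC-1 libraries lie below every control, narrowly so for Cyp2d. For Cyp4a, LPS library 2 stands in the control range.

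By subfamily, the ratio of LPS + MIC-1 to LPS sums was 0.791 for Cyp2a, 0.746 for Cyp2c, 1.01 for Cyp2d, 1.71 for Cyp2j, 1.3 for Cyp3a, 0.662 for Cyp4a and 1.00 for Cyp4f. The Cyp2j sum, 50.6, 67.8 and 42.6 FPKM after LPS and 115, 43.8 and 116 after pretreatment, overlapped between the groups. The Cyp4a ratio rested on LPS library 2, which held 294 FPKM against 99.3 and 108, and without it the log2 ratio changed sign to 0.09. No test was made of sums.

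Set against the controls, LPS + MIC-1 libraries showed 19 members lower (41.3%) and 4 higher (8.7%), beside 11.5% and 13.8% of all genes. These counts stand next to those of LPS against control, with which they share the control libraries. Cyp2c54 (Log2FC -4.29), Cyp2a5 (-3.54), Cyp2c37 (-3.15), Cyp3a25 (-3.10) and Cyp2j9 (-2.98) were the largest falls, each with every library below the controls. The rises were Cyp4a31 (2.24, 6.32 and 0.932 FPKM, Log2FC 2.58), Cyp3a13 (Log2FC 2.29), Cyp4f18 (1.35, 3.21 and 1.94 FPKM, Log2FC 1.34) and Cyp2d40 (Log2FC 1.24, adjusted p = 0.00529, limma). Cyp2a22 and Cyp4a32 were called lower here, with Log2FC of -1.37 and -1.20, and Cyp2d22, Cyp2j6 and Cyp4v3 were not, with -0.90, -0.65 and -0.94.

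The receptors by which members are regulated gave a mixed account. Of 6 tested members known as CAR targets, 4 fell with LPS (Cyp2c37, Cyp2c50, Cyp2c54 and Cyp2c55), with a median Log2FC of -2.59 beside 0.147 for all genes. Of 4 PPARA-regulated Cyp4a members, 1 fell and 1 rose, with a median of -0.05. Of 3 tested PXR-regulated members, 2 fell (Cyp3a25 and Cyp3a11) and 1 rose (Cyp3a13), with a median of -1.45. The 1 tested AHR-regulated member, Cyp1a2, fell (Log2FC -2.27). Of 5 genes known as female-predominant in mouse liver, 3 fell (Cyp2c38, Cyp2c40 and Cyp4a10), and of 2 known as male-predominant none was called. These counts stand beside 43.5% of all members and 11.2% of all genes called lower, and the calls of Cyp2c40 and Cyp4a10 were lost without single libraries.

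Transcripts of the regulators and partners were examined next, from lists chosen with earlier results of these data known. The counts that follow stand beside 11.2% of all genes called lower and 13.4% called higher. Of 18 tested regulators of P450 genes, 4 fell and 2 rose with LPS, the latter near the share of all genes. The largest fall was in Dbp, a circadian PAR bZIP factor that activates Cyp2a5, at 21.3, 9.79 and 13.5 FPKM in the controls and 1.46, 0.74 and 1.46 with LPS (Log2FC -3.12, limma, adjusted p = 0.00124). Nr1i3, which encodes CAR, fell from 44.5, 91.5 and 99.7 to 4.67, 58.0 and 5.51 FPKM (Log2FC -2.61, limma, adjusted p = 0.0398), and its LPS library 2 stayed in the control range. Bcl6, a repressor, had the largest rise (Log2FC 2.33). Nr1i2, which encodes PXR, and Ppara were not called, with Log2FC of -0.55 and 0.65.

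Of 5 redox partners, Cyb5r3 (Log2FC -2.15), the reductase of cytochrome b5, and Pgrmc1 (-1.11), a haem-binding partner of P450 enzymes, fell, and Por, the P450 oxidoreductase, was not called (88.4 ± 1.72 FPKM in the controls and 118 ± 44.4 with LPS, SD, n = 3 each). Of 11 genes of haem synthesis and breakdown, 3 rose and 1 fell, where 13.4% and 11.2% of all genes did. Hmox1, which degrades haem, rose from 7.50, 9.25 and 4.64 to 60.3, 21.2 and 59.7 FPKM (Log2FC 2.54, limma, adjusted p = 0.00698), and Cpox, a step of haem synthesis, had a Log2FC of -1.47. Of 18 genes of other oxidation and hydrolysis, 7 fell and none rose, led by Aox3, an aldehyde oxidase (Log2FC -4.60).

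P450 genes of families above 4, which make and break down bile acids, steroids and retinoids, gave 5 falls and 2 rises among 10. Cyp7a1, the rate-limiting enzyme of bile acid synthesis, fell from 19.6, 30.3 and 30.2 FPKM to 0.103, 0.927 and 0.0631 (Log2FC -5.08, limma, adjusted p = 0.000246), and Cyp17a1, a steroid hydroxylase, rose from 2.58, 12.9 and 3.05 to 109, 28.8 and 117 (Log2FC 3.78, limma, adjusted p = 0.0059). Among 19 PPARA targets outside P450, 5 rose, led by Fgf21 (Log2FC 2.70), and 2 fell, led by Acaa1b (-2.69). Among 6 AHR targets, Tiparp rose (1.60) and 2 fell, led by Gsta2. No gene of these lists was called between LPS + MIC-1 and LPS.

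Values of other cell types and of liver zones stand beside these falls. Of 20 acute-phase genes 19 rose with LPS, led by Saa3 (Log2FC 6.23), and Hamp fell. Of 10 pericentral hepatocyte markers outside P450, 4 fell and none rose (Lgr5, Glul, Oat and Tbx3); their summed FPKM was 807 to 1147 in the controls, 420 to 446 with LPS and 442 to 677 with LPS + MIC-1. Of 11 periportal markers 2 fell and 2 rose, and of 13 hepatocyte markers 3 fell and 2 rose, with sums of 47570 to 93480 FPKM in the controls and 40960 to 51710 with LPS. Of 8 Kupffer cell and macrophage markers Marco rose and Clec4f and Vsig4 fell, of 8 endothelial markers Pecam1 and Lyve1 rose and Clec4g and Kdr fell, and of 4 T and NK cell markers Gzma and Gzmb rose and Cd3d fell. Of 5 bile duct markers Sox9 rose, and of 6 stellate cell markers none was called. The part of cell composition in the P450 values was not tested.

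Promoters, from 250 bases before to 50 after the RefSeq start (GRCm38.p6), were matched for 36 of 46 members by symbol. The motif CAAAGTNCA, which is the core bound by HNF4A, occurred on either strand in 8 of the 36 member promoters, 5 of them among the 14 matched promoters of genes that fell with LPS, and in 1.4% of 27025 promoters. Most of these 8 are Cyp2c genes of chromosome 19, where duplicated copies share sequence, so the matches are not independent. The surrounding bases are printed with the motif in capitals. They are alike in Cyp2c37 and Cyp2c50, and in Cyp2c40, Cyp2c68 and Cyp2c67, the last of which did not pass the test. Those of Cyp2c70, Cyp2d26 and Cyp3a11 resemble none of the others.
Cyp2c37 (chr19:39992341-39992389, plus strand): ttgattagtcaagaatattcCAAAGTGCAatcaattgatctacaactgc
Cyp2c50 (chr19:40089598-40089646, plus strand): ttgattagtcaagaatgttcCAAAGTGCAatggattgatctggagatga
Cyp2c40 (chr19:39812831-39812879, minus strand): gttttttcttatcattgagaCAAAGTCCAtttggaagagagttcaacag
Cyp2c68 (chr19:39741150-39741198, minus strand): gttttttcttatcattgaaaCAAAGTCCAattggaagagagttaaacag
Cyp2c67 (chr19:39649139-39649187, minus strand): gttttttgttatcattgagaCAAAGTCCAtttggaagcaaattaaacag
Cyp2c70 (chr19:40187322-40187370, minus strand): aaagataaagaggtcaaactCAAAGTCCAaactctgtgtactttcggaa
Cyp2d26 (chr15:82794275-82794323, minus strand): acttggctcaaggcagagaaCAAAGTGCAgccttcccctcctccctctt
Cyp3a11 (chr5:145879935-145879983, minus strand): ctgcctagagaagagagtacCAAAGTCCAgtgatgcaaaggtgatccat

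Cyp2c37, Cyp2c50, Cyp2c40, Cyp2c68 and Cyp3a11 fell with LPS, Cyp2c67 missed the call, and Cyp2c70 and Cyp2d26 had Log2FC of 0.27 and 0.12. The C/EBP motif TTNNGCAA occurred in 8 of the 36 promoters and in 10.8% of all. Other motifs were searched in the same promoters. The motif named XRE core occurred in 7 of the 36 (32.5% of all promoters), GAS in 2 (8.5%) and NF-kB in 2 (4.5%). FOXA occurred in 3 of the 36 (3.5% of all), HNF1 in 1 (0.4%) and PAR bZIP in 1 (2.3%). Whether any motif was more or less frequent in members was not tested. A match describes letters in this window and nothing about binding.

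In RAW264.7 macrophages 3 members had a mean above 1 FPKM, all of family 4, and 36 of 46 had a mean below 0.1, with 7 at 0 in every library. Cyp4v3 was the highest, with 12.3, 15.2 and 12.4 FPKM in the controls, 11.4, 15.8 and 12.2 after LPS, and 16.3, 13.5 and 16.2 after LPS + MIC-1. Cyp4f13 stood at 4.72, 7.71 and 5.23 in the controls, 22.6, 6.95 and 25.7 after LPS, and 15.7, 11.2 and 17.3 after LPS + MIC-1. Cyp4f16 ranged from 2.84 to 9.10 FPKM over all 9 libraries. Over the 9 libraries the means were 13.9, 13.0 and 6.13 FPKM, and the ranges of the first 2 overlapped.

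**Figure D4:**
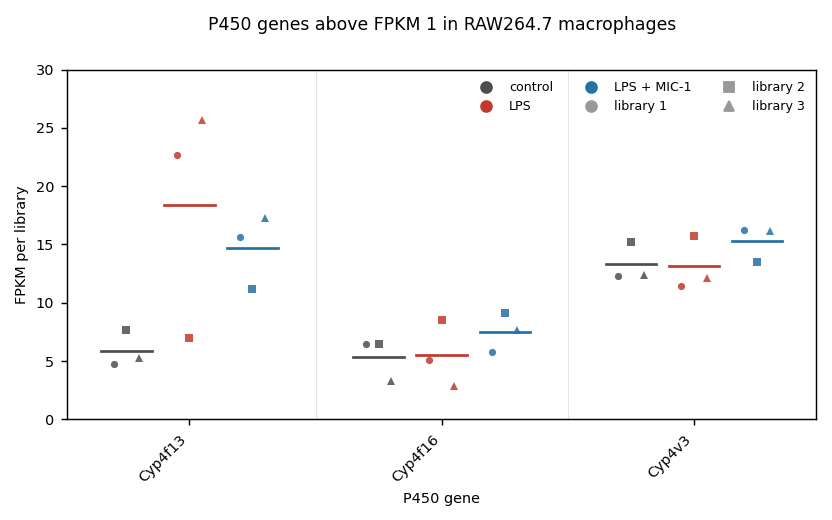
FPKM of the 3 members above a mean of 1 in RAW264.7 macrophages, by group (colour) and library (marker), with the group mean as a bar. Cyp4f13 is above the controls in every library but LPS library 2 of the treated groups, which lies in the control range.

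LPS library 2 of the macrophages stood apart over all genes, with a median squared difference from the other LPS libraries of 194 to 199 times the sampling variance, where libraries 1 and 3 differed by 2.55 times. With it, no member was called between LPS and control, where 0% of 9905 genes were called in either direction (0 genes; 49.8% had an unadjusted p below 0.05 by limma). Cyp4f13 had a Log2FC of 1.40 ± 0.46 and an adjusted p of 0.0777 by limma. Without it Cyp4f13 was called higher, as were 1674 of the 9905 genes, while 1841 were called lower. These calls rest on LPS libraries 1 and 3, which were close to each other. With the closest libraries of each group averaged, 0 genes were called in either direction. Against the controls, every LPS + MIC-1 library held more Cyp4f13 (Log2FC 1.26, adjusted p = 0.0788, limma), short of the threshold. Here 5.82% of all genes were called higher and 6.02% lower, and 31.4% and 34.9% had ranges that lay apart in these directions. Between LPS + MIC-1 and LPS no member was called, where 4.12% of genes were higher and 4.19% lower. Cyp4v3 and Cyp4f16 had Log2FC between -0.03 and 0.51 in the 3 macrophage comparisons. In liver the same Cyp4f13 was lower with LPS, and the difference between the tissues was not tested because the tables were normalised separately.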

How the data were processed

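RNA-seq of 9 liver and 9 RAW264.7 libraries was used, 3 per group. Sequencing was done by BGI. The authors used Kallisto 0.45.0 with an mm9 index built from RefSeq, brought transcripts to gene level by tximport, and deposited FPKM that DESeq2 1.20.0 produced (versions of Kallisto and DESeq2 from the submitters' processing notes). Replicates were not pooled. The deposited comparisons hold log2 fold changes and p-values, which were not used; the mean normalized count (signal) over libraries, as deposited by the authors, served only to recover reads per library. Between 77.5 and 94.3% of low FPKM values were whole numbers of reads within 0.05 read.

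Columns name the group and no replicate; 0 columns were unmatched. Each table was fitted alone with limma 3.58.1 (R 4.3.3), with intensity trend, on log2(FPKM + 0.5) over genes with a mean FPKM above 1, and p-values were adjusted by Benjamini and Hochberg over all of them. A Log2FC is on that scale and understates changes of low genes. The fit was also run on simulated data whose noise was drawn independently for each library. That simulation does not copy the close pairs of libraries and cannot check errors that come from them. Sums over a subfamily were not tested. Values in every library are given for the 15 members of highest mean, for the 5 largest called changes in each direction of each liver comparison (or the 3 smallest p where none was called), and for members above 1 FPKM in macrophages. The members and lists were chosen with earlier results of these data known. In the study's own macrophage analysis 1 LPS library was left out; here all were kept. Positions are from GENCODE vM1 (mm9) and promoters from RefSeq (GRCm38.p6), where 10 members had no entry: Cyp2c44, Cyp2c54, Cyp2d13, Cyp2d22, Cyp2u1, Cyp4a10, Cyp4a14, Cyp4a31, Cyp4f17 and Cyp4x1. Intervals are for the difference of group means, and their width comes from the spread between libraries.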

Additional observations from a re-analysis of the deposited data

How the results depend on the processing

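No paired analysis was possible because the columns of the tables carry no replicate numbers. In liver, LPS against control, 3 members were called higher and 20 lower. The 3 became 0 at an adjusted p below 0.01 or with the closest pairs of libraries averaged, and 0 to 4 with 1 library left out; the 20 became 5 with the closest pairs averaged, and 15 to 22 with 1 library left out. LPS + MIC-1 against LPS gave 0 in both directions, 1 lower (Cyp4a32) at an unadjusted p below 0.05, and 0 with any library left out. LPS + MIC-1 against control gave 4 higher and 19 lower, 2 higher at an adjusted p below 0.01, 0 and 6 with the closest pairs averaged, and 3 to 4 and 17 to 19 with 1 library left out. In macrophages Cyp4f13 was the 1 member called at an unadjusted p below 0.05 (LPS or LPS + MIC-1 against control), without LPS library 2 (both), and with only the 2 groups in the fit (LPS + MIC-1 against control). Averaging pairs, chosen after seeing the data, leaves 2 samples a group. Over all liver genes it left 106 higher and 44 lower for LPS against control, and 110 and 61 for LPS + MIC-1 against control. In macrophages 0 genes were then called in any comparison. Of 874 recomputed single-member results, 783 kept their direction and call, 91 kept only the direction and none reversed. Part of this was fixed in advance. Looser thresholds could not lose a call, and settings that kept the same group values could not reverse a direction.

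With the FPKM of every library scaled to the same sum, the all-gene median Log2FC went from 0.147 to -0.176 for LPS against control and from -0.009 to -0.263 for LPS + MIC-1 against LPS. The log2 ratios of LPS to control sums then moved to -2.03 (Cyp2a), -2.12 (Cyp2c), -0.85 (Cyp2d), -2.01 (Cyp3a), -1.06 (Cyp4f) and -1.46 (all members), and those of LPS + MIC-1 to LPS to -0.64 (Cyp2a), -0.28 (Cyp2d), 0.073 (Cyp3a), -0.28 (Cyp4f) and -0.21 (all members), the last of which was above 0 before. LPS + MIC-1 against control then had 2 members higher and 29 lower in liver and 1 higher (Cyp4f13) in macrophages. Over all genes 535 were then called higher and 2584 lower in liver, and 488 and 362 in macrophages. Without LPS library 2 the Cyp4a log2 ratios were -1.401 (LPS to control) and 0.092 (LPS + MIC-1 to LPS); with any 1 library left out they ran from -1.401 to -0.446 and from -0.863 to 0.092.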
